A study of Mus musculus with 2 samples.

Results

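Microglia of light-damaged retinas were ranked by their level of Apoe, the gene of apolipoprotein E, and the highest 25% of them were compared with the lowest 25%. The groups were thus chosen by measured values, Apoe and the gate genes, and neither is a finding. A cell counted as microglial when it held at least 300 genes, at most 10% mitochondrial transcripts and at least 20 transcripts of P2ry12, Tmem119, Siglech, Gpr34 and P2ry13 together per 10000. Of 6821 cell barcodes of the light-damaged library, 4655 met this rule, and the Apoe-high and Apoe-low groups held 1163 cells each. The cells in between formed 2 more groups of 1164 and 1165 cells, and levels given below as 4 values run from the lowest to the highest Apoe group. The whole series held 10824 barcodes. Transcripts were counted as unique molecular identifiers (UMIs), each standing for 1 captured RNA molecule.

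The cells came from retinas of male CB6F1 mice of 8 months that carried a Cx3cr1-YFP reporter, which makes cells that use the fractalkine receptor promoter fluorescent. This reporter marks microglia and also other cells of the myeloid lineage, so the sort alone does not separate them. One pool of retinas from 5 to 8 mice gave the light-damaged library, taken 5 days after 4 h under LED light of 10 klux. A pool of undamaged retinas of the same strain, sex and age gave the control library. Live YFP-positive cells were sorted and sequenced from the 3′ end. All cells of a group share 1 library and 1 pool of mice. Cells are therefore no replicates, no test was made between the groups, and every interval below is an exact 95% interval that covers counting error only.

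Apolipoprotein E is the main lipid carrier made by glia. It is secreted, loaded with cholesterol and phospholipid by the transporters ABCA1 and ABCG1, and taken up again through receptors of the LDL receptor family, while TREM2 on microglia binds lipid-loaded particles. Liver X receptors switch on Apoe, Abca1 and Abcg1 when sterols accumulate. Microglia that clear dying cells or myelin are known for raising Apoe together with lysosomal and lipid genes and for lowering genes of the resting state, a pattern called disease-associated microglia.

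The promoters of 4 genes are shown because the results turn on them: Apoe ranks the cells, Cst7 and Ctsd stand for the genes higher with Apoe, and Hspb1 for the heat shock genes lower with it. Each runs 5′ to 3′ on the gene's strand from 250 bases before the transcription start to 20 after it, from RefSeq on GRCm38.p6. Apoe lies at chr7:19699169-19699438 on the minus strand, Cst7 at chr2:150570165-150570434 on the plus strand, Ctsd at chr7:142387808-142388077 on the minus strand and Hspb1 at chr5:135887669-135887938 on the plus strand. Capitals mark matches to 5 motifs searched on both strands: the heat shock element GAANNTTC, the E-box CACGTG, the AP-1 site TGANTCA, the PU.1-type site GAGGAAGT and the direct repeat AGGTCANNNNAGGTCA of the liver X receptor.
Apoe: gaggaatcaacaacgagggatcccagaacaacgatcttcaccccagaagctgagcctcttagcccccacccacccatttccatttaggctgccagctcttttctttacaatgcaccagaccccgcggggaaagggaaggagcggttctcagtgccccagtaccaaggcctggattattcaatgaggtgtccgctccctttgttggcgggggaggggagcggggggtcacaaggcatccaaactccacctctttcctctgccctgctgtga
Cst7: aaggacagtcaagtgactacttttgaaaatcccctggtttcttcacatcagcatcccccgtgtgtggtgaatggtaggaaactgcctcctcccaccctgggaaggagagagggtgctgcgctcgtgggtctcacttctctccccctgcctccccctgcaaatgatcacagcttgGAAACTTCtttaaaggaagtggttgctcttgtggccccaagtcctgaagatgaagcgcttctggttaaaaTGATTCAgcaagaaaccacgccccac
Ctsd: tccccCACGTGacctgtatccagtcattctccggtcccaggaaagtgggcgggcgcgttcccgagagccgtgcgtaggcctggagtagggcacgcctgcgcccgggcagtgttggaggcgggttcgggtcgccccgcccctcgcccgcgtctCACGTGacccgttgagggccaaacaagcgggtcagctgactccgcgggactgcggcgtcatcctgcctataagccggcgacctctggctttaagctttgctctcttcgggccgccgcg
Hspb1: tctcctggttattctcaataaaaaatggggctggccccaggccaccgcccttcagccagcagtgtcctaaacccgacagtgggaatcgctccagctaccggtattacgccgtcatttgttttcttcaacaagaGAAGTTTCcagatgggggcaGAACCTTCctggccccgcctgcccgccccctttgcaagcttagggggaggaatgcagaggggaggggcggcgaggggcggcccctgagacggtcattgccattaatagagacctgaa
No motif matched in the Apoe window, which says only that these letters are not in it. Cst7 held a heat shock element starting 76 bases before the start and an AP-1 site 6 bases before it. Ctsd held the E-box 245 and 98 bases before the start. Hspb1 held heat shock elements 117 and 97 bases before the start. The search covered 250 bases before to 50 after the start, 30 bases more than printed. Among 27025 mouse promoters of that 300-base window, 7.95% held a heat shock element, 7.24% an E-box, 7.93% an AP-1 site, 3.28% a PU.1-type site and 0.0111% the direct repeat. Of the 11 heat shock genes described below, 8 were in the promoter table and 5 of those held a heat shock element: Hspb1, Hspa1a, Hspa1b and Hspe1 within the bases before the start, and 1 more after it.

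Apoe (chr7:19696109-19699188, minus strand) itself chose the groups, so its values are a description. Its median was 9.58 UMIs per 10000 in the lowest group, 17.4 and 47.2 in the middle groups and 225 in the highest. As summed levels, with every cell thinned to 3000 UMIs and scaled to CPM, the usual scaling of counts by their total, Apoe stood at 921, 1778, 5151 and 31490 CPM. The highest group held 82.1% of all Apoe UMIs of the gated cells. The last cell inside the low group had 13.0171 and the first outside 13.0174 UMIs per 10000. At the upper limit, the first cell inside had 96.3222 and the last outside 96.291, so the limits cut a continuous range and not a gap. Passing cells outside the gate, 2144 barcodes with lower microglial markers, stood at 52823 CPM, above the Apoe-high group.

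**Figure D1:**
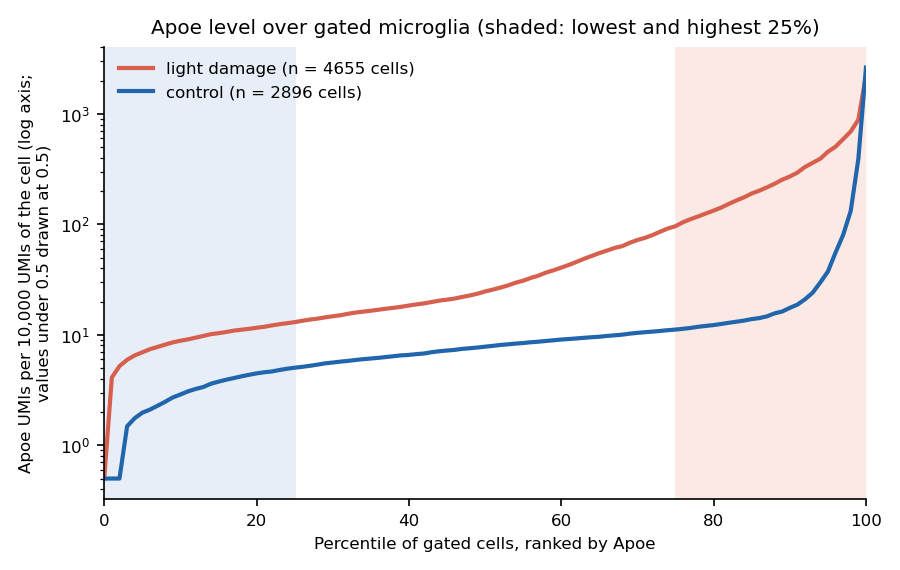
Apoe UMIs per 10000 UMIs of a cell (log axis) against the percentile of gated cells, for the light-damaged library (4655 cells) and the control library (2896 cells of at least 3000 UMIs); shading marks the lowest and highest group. The light-damaged curve lies above the control curve over most of the range and climbs steadily from the median on, and the control curve climbs only at its upper end.

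The groups were close in median depth, mitochondrial share and genes seen, but not in their number of very deep cells. Among the 372 deepest barcodes of the library were 110 gated cells, 14, 12, 30 and 54 from the lowest to the highest Apoe group. Whether doublets were spread evenly over the groups was not tested. Median depth before thinning was 7017, 6177, 6793 and 7775 UMIs from the lowest to the highest Apoe group, the share of mitochondrial UMIs lay between 2.56% and 2.66%, and 1193 to 1217 genes were seen per thinned cell. The light-damaged library held 58187149 UMIs and the control library 20056338. The libraries had 47 barcodes in common, of which 28 were gated light-damaged cells.

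The microglial identity of both groups was checked against 10 markers, of which 5 are the gate genes, whose presence the rule fixed. The other 5 markers were present in both groups, with a summed level of 12903 CPM in the low and 12224 CPM in the high group, against 5642 CPM in passing cells outside the gate. The median sum of the gate genes fell from 44.0 UMIs per 10000 in the low to 35.2 in the high group. Macrophage markers moved the other way. The 10 monocyte or macrophage markers summed to 1195, 1272, 1540 and 2997 CPM over the groups, 12658 CPM outside the gate, and 8 of 10 were higher in the Apoe-high than in the Apoe-low group. Most of this sum was Lyz2. The defining monocyte marker Ccr2, a chemokine receptor, had 3 UMIs in the low and 12 in the high group. The 7 perivascular macrophage markers summed to 12.9 CPM in the low and 65.1 CPM in the high group, with Mrc1, the mannose receptor gene, at 3 and 16 UMIs. Of the gated cells, 158 held 2 or more UMIs of these macrophage markers other than Lyz2. They were spread as 13, 21, 27 and 97 cells from the lowest to the highest Apoe group. Markers of T cells and B cells had no UMI in the high group. How much macrophages, cells holding material of both, or free RNA add to the differences below was not tested beyond the counts without marker-carrying cells given beside them.

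Across 4814 genes with at least 20 CPM on average over both groups, 68 were over 1.5-fold higher in Apoe-high cells, which is 1.41% of the genes, and 58 were over 1.5-fold lower, which is 1.2%. The median log2 ratio over all of them was -0.03, so most genes had a ratio below 1. Apoe itself made up 3.15% of the UMIs of the high group and 0.0921% of those of the low group. A larger Apoe share lowers the CPM of all other genes by arithmetic. Counts of ratios above or below 1 in the lists that follow were not set against the share over all genes. Of the 68 higher genes, 35 had levels ordered over all 4 groups and 22 were past 2-fold. Of the 58 lower genes, 18 were ordered and 3 were past 2-fold. Of these calls, 23 higher and 19 lower genes lay under 20 CPM in the other group and reached the minimum only through the group where they were high. A second random draw of the thinned UMIs called 66 and 55 genes, of which 44 and 30 were among those called here. Many calls thus sit close to the limit, and 25 higher and 9 lower genes kept their call without thinning, with the second draw, with groups matched on depth and under both filters on macrophage markers. Annotated positions are given on GRCm38 from GENCODE M21.

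**Figure D2:**
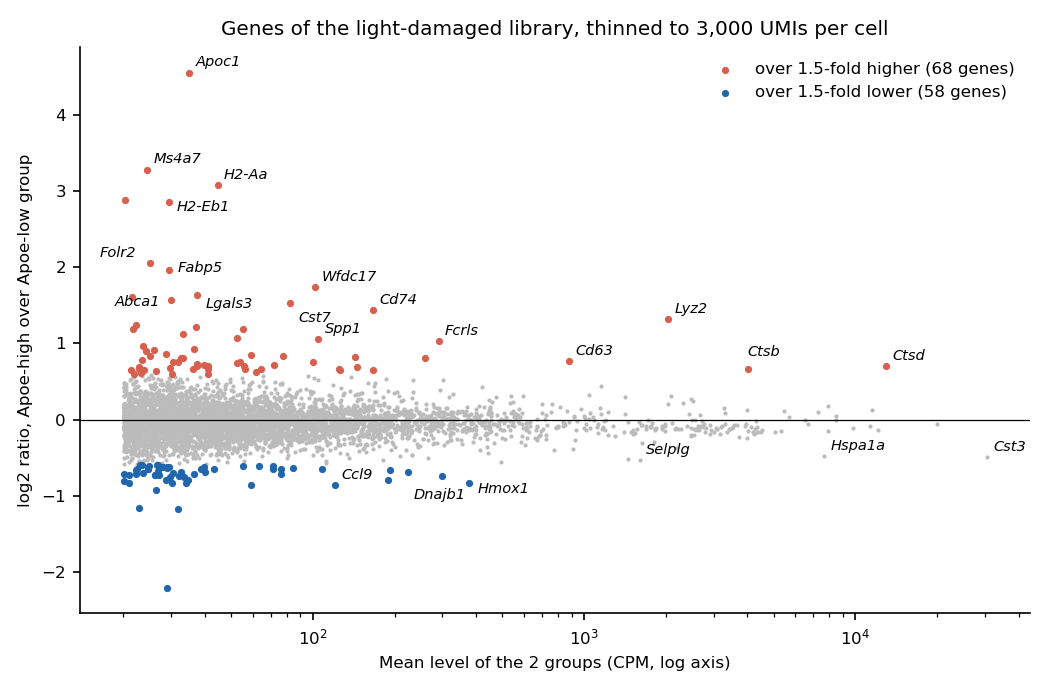
Log2 ratio of the Apoe-high over the Apoe-low group against the mean level of both (CPM, log axis) for the 4814 genes tested in the light-damaged library, with 68 genes over 1.5-fold higher in red and 58 over 1.5-fold lower in blue. Apoc1 stands apart at a log2 ratio of 4.55, and abundant genes such as Lyz2, Ctsb, Ctsd and Cst3 have smaller ratios.

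Of 26 genes on the Apoe lipoprotein list, 13 reached the minimum level, 3 of these were over 1.5-fold higher in Apoe-high cells and none lower, with a median log2 ratio of 0.21. The 3 were Apoc1, Abca1 and Abcg1. All 3 lay under 20 CPM in the low group and reached the minimum only through the high group, so they had to differ and their count supports nothing about the list. Apoc1, a small apolipoprotein whose gene (chr7:19689481-19692660) follows Apoe on the same strand after a gap of 3448 bases, had 10 UMIs in the low and 234 in the high group. Its levels were 2.87, 4.29, 10.6 and 67.1 CPM, a ratio of 23.4 (12.5 to 49.4), and 44.4% of the UMIs of the high group came from 20 cells. Apoc4, of the same gene cluster, had 2 and 30 UMIs, a ratio of 15 (3.81 to 130), and no UMI of Apoc2 was seen in either.

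The cholesterol exporters followed the same order. Abca1 stood at 15.2, 22.0, 26.4 and 45.0 CPM, a ratio of 2.96 (2.16 to 4.12). Abcg1 stood at 10.6, 15.2, 15.8 and 32.4 CPM, a ratio of 3.05 (2.09 to 4.56). Both were ordered over all 4 groups. Their ratios stayed over 1.5-fold in each of 19 alternatives, down to 1.93 for Abca1 and 1.87 for Abcg1, but with the level minimum included the call held in 18 and 15 of them. Since both reached the minimum level only through the high group, they had to differ. Neither their order nor these counts therefore support anything about the exporters. Besides Apoc4, 3 genes of the list under the minimum level had intervals above 1. They were Ch25h, which makes the sterol 25-hydroxycholesterol, with 17 and 61 UMIs (ratio 3.59, 2.07 to 6.55), Pltp, the phospholipid transfer protein, with 22 and 66 UMIs (3, 1.83 to 5.11), and Scd2, a fatty acid desaturase gene, with 35 and 69 UMIs (1.97, 1.29 to 3.05).

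The remaining genes of the list at the minimum level stayed within 1.5-fold. The lipid receptor gene Trem2 stood at 2145, 2191, 2303 and 2502 CPM (ratio 1.17, 1.13 to 1.20), and Npc2, which moves cholesterol out of lysosomes, had a ratio of 1.16 (1.12 to 1.20). The uptake receptor Lrp1 had 1.11 (0.977 to 1.25), the liver X receptor gene Nr1h2 0.978 (0.793 to 1.21), and the cholesterol esterifying enzyme Soat1 1.29 (1.04 to 1.60). The cholesterol synthesis list had 7 of 17 genes at the minimum level, none of them past 1.5-fold, and a median log2 ratio of -0.27. Srebf2, a gene of that list under the minimum level, had 52 and 32 UMIs (0.615, 0.383 to 0.974). Of the list on fatty acid uptake and storage, 2 of 10 genes at the minimum level were over 1.5-fold higher, against 1.41% of all genes. Fabp5, a fatty acid binding protein, stood at 12, 13.2, 15.8 and 47.0 CPM (ratio 3.90, 2.77 to 5.62), and Plin2, a coat protein of lipid droplets, at 40.1, 39.2, 56.7 and 67.6 CPM (1.69, 1.36 to 2.09). Fabp5 reached the minimum only through the high group, and the ratio of Plin2 was 1.44 with groups matched on depth and 1.48 without the 158 cells holding 2 or more UMIs of macrophage markers other than Lyz2. The lipoprotein lipase gene Lpl, at 49.3 and 67.4 CPM, had a ratio of 1.37 (1.12 to 1.67).

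**Figure D3:**
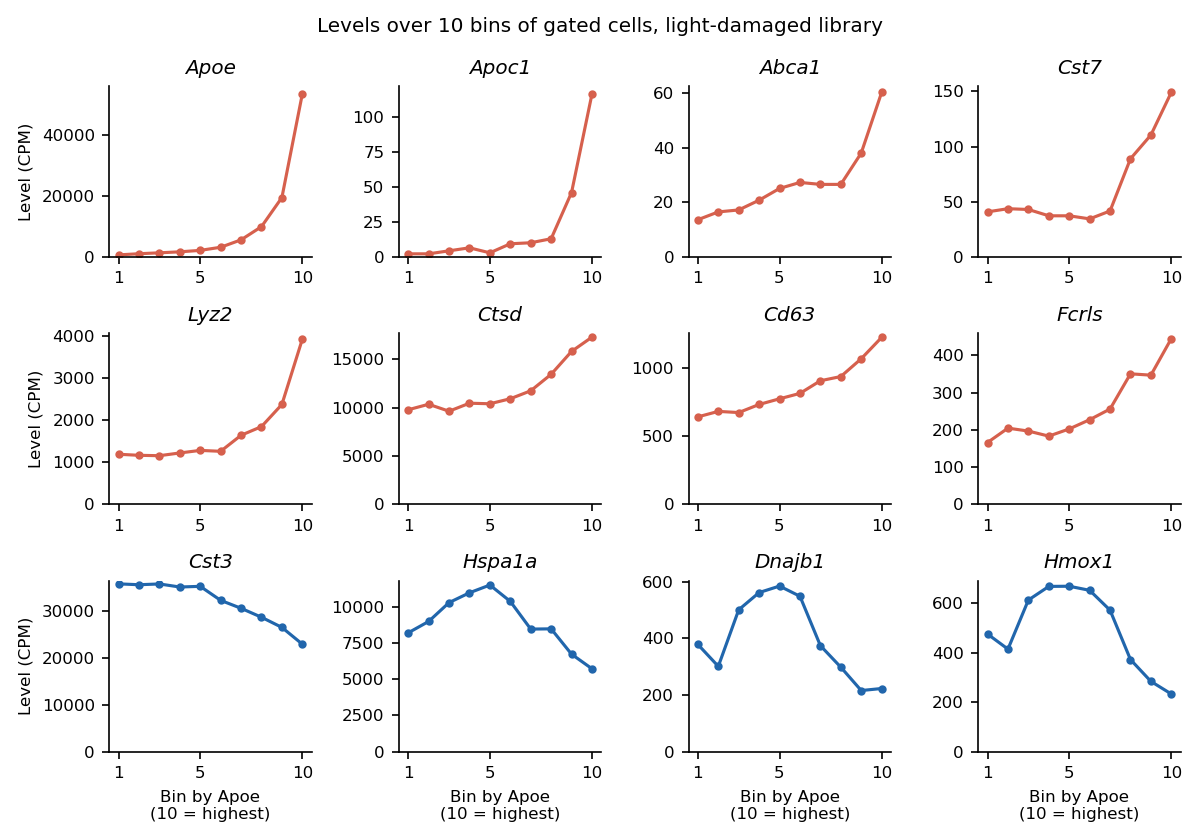
Levels in CPM over 10 bins of equal size of gated light-damaged cells ordered by Apoe, for Apoe, 7 genes higher with it (red) and 4 genes lower with it or highest in the middle (blue). Apoc1 and Lyz2 climb in the highest bins, Ctsd and Cd63 climb over the upper bins, and Hspa1a, Dnajb1 and Hmox1 are highest in the middle bins and lowest at the Apoe-high end.

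Genes of the disease-associated state were higher with Apoe in part. Of 27 genes on that list, 22 reached the minimum level, 8 of these were over 1.5-fold higher and none lower, and the median log2 ratio was 0.28. Over all 4814 genes 1.41% were over 1.5-fold higher and 1.2% lower, with a median of -0.03. Fabp5 and Lgals3 among the 8 reached the minimum only through the high group. The list was written with earlier results of these data known, so its direction is no independent evidence. Cst7, the gene of the cathepsin inhibitor cystatin F (chr2:150570415-150578944, plus strand), stood at 42.4, 38.3, 47.3 and 122 CPM (ratio 2.89, 2.39 to 3.50). With the cells in 10 bins by Apoe, it stayed at 34.4 to 43.6 CPM over the lower 7 bins and reached 149 CPM in the highest. Lgals3, the gene of galectin-3, stood at 18.3, 18.6, 36.1 and 56.7 CPM (3.09, 2.32 to 4.17). Spp1, the gene of osteopontin, stood at 68.2, 84.1, 73.9 and 141 CPM (2.07, 1.77 to 2.43), with 1706 CPM outside the gate and 40.6% of the UMIs of the high group in 20 cells. Cst7 was the exception among these, with fewer transcripts outside the gate (53.8 CPM) than in Apoe-high microglia. Igf1, a growth factor gene under the minimum level, had 4 and 36 UMIs. Some other abundant genes of the list had ratios close to 1: Tyrobp, the adaptor of TREM2, had a ratio of 1.06 (1.03 to 1.09), the tetraspanin gene Cd9 1.00 (0.966 to 1.03) and the ferritin gene Fth1 0.997 (0.982 to 1.01). Of the 22 genes, 16 had a ratio above 1 and 6 below. The lowest was the chemokine gene Ccl6, with 849 and 611 UMIs (0.720, 0.648 to 0.799). The integrin gene Itgax, often used to mark the state, had 80 and 60 UMIs (0.75, 0.528 to 1.06).

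Of 23 genes of the lysosome list at the minimum level, 18 had a ratio above 1, 3 were over 1.5-fold higher and none lower, with a median log2 ratio of 0.24. Over all 4814 genes the median was -0.03, and 1.41% were over 1.5-fold higher and 1.2% lower. The 3 were Ctsd, Ctsb and Cd63. Ctsd, the gene of the aspartic protease cathepsin D (chr7:142375911-142388038, minus strand), stood at 9923, 10292, 11569 and 16099 CPM, a ratio of 1.62 (1.60 to 1.64). Ctsb, the gene of cathepsin B, stood at 3101, 3201, 3651 and 4912 CPM (1.58, 1.55 to 1.62), and Cd63, a tetraspanin of late endosomes, at 649, 746, 874 and 1105 CPM (1.70, 1.62 to 1.79). All 3 were ordered over the groups. Their calls lie near the limit: with groups matched on depth the ratios of Ctsd and Ctsb were both 1.48. The lysosomal protease genes were not uniform, since Ctss, at 12685 and 11573 CPM, had a ratio of 0.912 (0.900 to 0.924), Lgmn 0.902 (0.881 to 0.924) and Ctsh 1.02 (0.969 to 1.06). Pld3, a lysosomal exonuclease gene outside the list, stood at 189, 198, 221 and 329 CPM (1.75, 1.59 to 1.93).

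Resting-state microglial genes outside the gate showed 1 gene higher and 1 lower past 1.5-fold among 25, and 17 of 25 had a ratio below 1. Most of the 4814 genes tested had a ratio below 1 too, and 1.41% of them were over 1.5-fold higher and 1.2% lower. The higher gene was Fcrls, an Fc receptor-like gene of resident microglia, at 191, 189, 259 and 391 CPM (2.04, 1.86 to 2.24). The lower was Slc2a5, the fructose transporter, at 94.6, 107, 79.3 and 57.6 CPM (0.609, 0.509 to 0.728). Cst3, the gene of the secreted protease inhibitor cystatin C (chr2:148871722-148875692, minus strand), stood at 35627, 35171, 30847 and 25386 CPM. Its ratio of 0.713 (0.706 to 0.719) did not pass 1.5-fold. Selplg, a selectin ligand gene, stood at 1898, 1916, 1737 and 1313 CPM (0.692, 0.666 to 0.718). Outside the list, the adhesion receptor gene Adgrg1 stood at 237, 222, 219 and 150 CPM (0.634, 0.567 to 0.708) and lay at 26.1 CPM outside the gate. Core genes such as Cx3cr1 (1.02, 0.972 to 1.07) and Csf1r (0.925, 0.899 to 0.952) differed by less than 10%.

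Over single cells, the genes whose thinned counts went most with Apoe were Lyz2 (Pearson r = 0.356), Ctsb (0.272), Ctsd (0.263), Cd63 (0.223) and Fcrls (0.204). The genes that went most against it were Cst3 (-0.348) and Selplg (-0.263). These are descriptions over 4655 cells that share a library, among 2367 genes of at least 50 CPM, and sparse counts keep such values low.

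All 11 genes of the heat shock list, mostly chaperones that refold damaged proteins, were measured in the light-damaged library. All 11 had a ratio below 1, as did most of the 4814 genes tested, and 2 were over 1.5-fold lower, against 1.2% of all genes. The median log2 ratio was -0.46, against -0.03 over all genes. Dnajb1, a co-chaperone, stood at 376, 555, 439 and 224 CPM (0.597, 0.546 to 0.653), and Hspb1, a small heat shock protein gene (chr5:135887919-135889563, plus strand), at 132, 170, 131 and 84.3 CPM (0.638, 0.549 to 0.740), with 55.8% of the UMIs of the high group in 20 cells. Hspa1a stood at 8960, 11011, 9504 and 6405 CPM (0.715, 0.703 to 0.727), and reads of Hspa1a and its near-identical copy Hspa1b may not be separable. Hsp90aa1 stood at 1709, 2331, 2012 and 1198 CPM (0.701, 0.674 to 0.730). In all 4 the highest level lay in the group next above the lowest, so the relation was not graded. Hmox1, the heme oxygenase gene, followed the same course at 482, 653, 572 and 271 CPM (0.563, 0.519 to 0.610). The median of the heat shock list was -0.27 with groups matched on depth, -0.29 between the top and bottom 10% of cells and -0.13 with a gate of 40 per 10000. Hspb1 had ratios of 0.762, 0.905 and 0.845 in these settings and 0.749 without thinning, none of them past 1.5-fold. Dnajb1 was within 1.5-fold without thinning, at 0.705, and with the stricter gate, at 0.718. Hmox1 was within 1.5-fold in the same 2 settings, at 0.682 and 0.760.

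**Figure D4:**
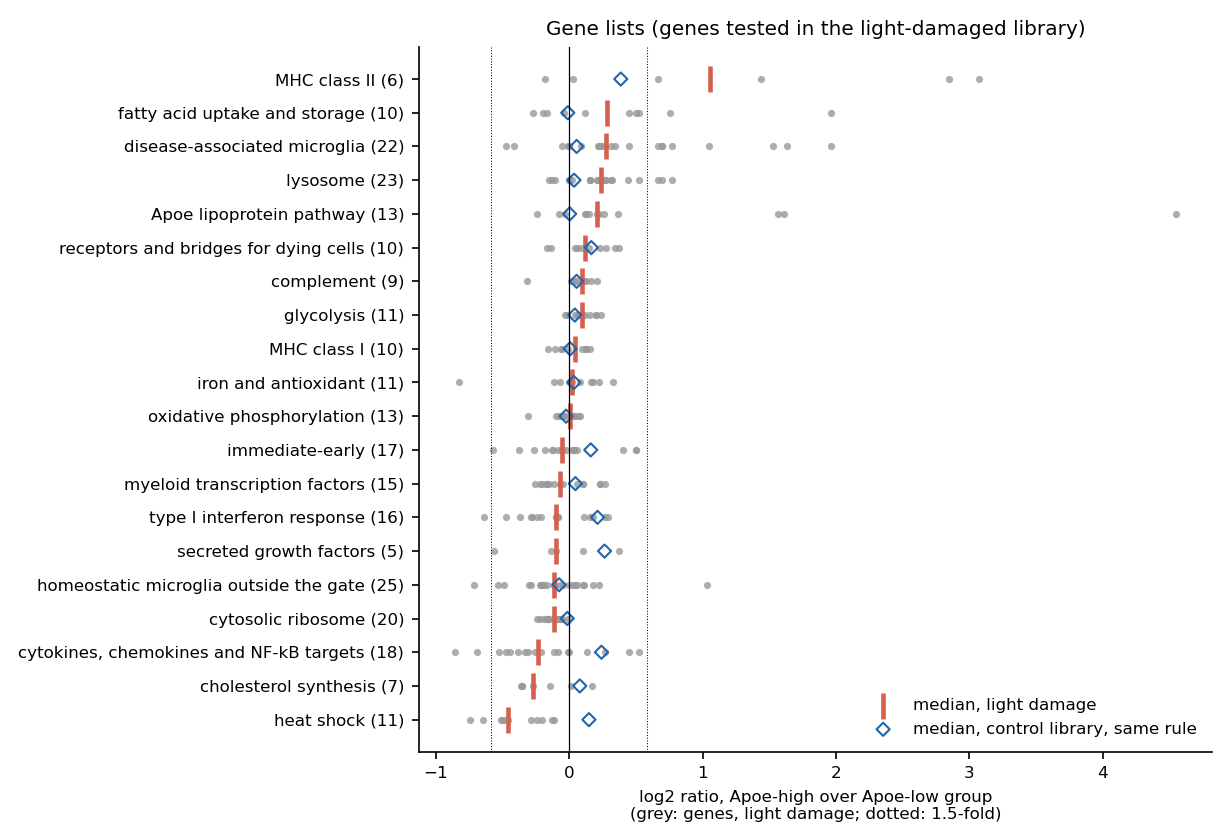
Log2 ratios of the Apoe-high over the Apoe-low group for 20 gene lists, with the number of genes tested in parentheses. Grey points are genes of the light-damaged library, red bars their median and blue diamonds the median in the control library under the same rule, and dotted lines mark 1.5-fold. MHC class II lies highest at a median of 1.05 and heat shock lowest at -0.46, and the control median of heat shock was 0.15.

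Of 18 cytokine, chemokine and NF-kB genes at the minimum level, none was over 1.5-fold higher, 2 were over 1.5-fold lower and 14 had a ratio below 1. Among all 4814 genes, 1.41% were over 1.5-fold higher and 1.2% lower, and most had a ratio below 1. Ccl9 stood at 155, 133, 135 and 85.7 CPM (0.552, 0.477 to 0.637). Ccl5 stood at 276, 160, 131 and 171 CPM (0.619, 0.558 to 0.686), but 80.0% of its UMIs of the high group came from 20 cells. The interleukin gene Il1a, at 214 and 149 CPM, had a ratio of 0.695 (0.620 to 0.778), and Il1b, at 143 and 194 CPM, 1.36 (1.21 to 1.53). The chemokine genes Cxcl2, at 192 and 275 CPM, and Ccl2, at 66.8 and 80.3 CPM, had ratios of 1.44 (1.30 to 1.59) and 1.20 (1.01 to 1.44). Under the minimum level, Ccl7 had 41 and 70 UMIs (1.71, 1.15 to 2.58) and Il6 25 and 10 UMIs (0.4, 0.171 to 0.862). The type I interferon list had 1 of 16 genes past 1.5-fold, Cxcl10, at 103, 124, 141 and 65.9 CPM (0.642, 0.542 to 0.760). In the high group 50.4% of its UMIs came from 20 cells, and without the 1223 cells carrying macrophage markers or class II transcripts, 254 of the low and 374 of the high group, the ratio was 0.980. Of the interferon genes under the minimum level, Ifit2 had 55 and 35 UMIs (0.636, 0.404 to 0.990) and Stat2 47 and 73 (1.55, 1.06 to 2.29). None of 17 immediate-early, 10 MHC class I, 9 complement, 11 glycolysis, 13 oxidative phosphorylation or 20 ribosomal genes was past 1.5-fold. All 20 ribosomal genes had a ratio below 1, with a median log2 ratio of -0.11, against -0.03 over all genes. Among 10 genes of receptors and bridges for dying cells, 15 myeloid transcription factors, 5 growth factors and 1 cell cycle gene at the minimum level, none was past 1.5-fold, and Hmox1 was the 1 of 11 iron and antioxidant genes that was. Of the growth factors under the minimum level, Gdf15 had 73 and 35 UMIs (0.479, 0.311 to 0.727), and Igf1, Il1rn and Csf1 had intervals above 1. Gas6, the bridging ligand of the receptor AXL, had a ratio of 1.29 (1.16 to 1.45) and Axl 1.27 (1.12 to 1.44). The pioneer factor gene of myeloid cells, Spi1, had 0.889 (0.828 to 0.954), and Sall1, a factor of microglial identity, 0.859 (0.749 to 0.986).

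Antigen presentation by MHC class II was the list with the highest median, at 1.05 with 4 of 6 genes over 1.5-fold higher, and it rested on few cells. H2-Aa and H2-Eb1 reached the minimum level only through the high group, so neither that count nor the median supports anything about the list. H2-Aa had 33 and 278 UMIs (ratio 8.42, 5.86 to 12.5), H2-Eb1 25 and 180 (7.20, 4.72 to 11.4), and the invariant chain gene Cd74 313 and 849 (2.71, 2.38 to 3.10). In the high group, 20 cells held 83.8%, 88.3% and 71.1% of these UMIs. Levels outside the gate were 1136, 866 and 3334 CPM. A filter chosen after seeing the data removed 1223 cells. They held any UMI of the macrophage markers other than Lyz2 or 2 or more class II UMIs. Under this filter Cd74 had a ratio of 1.09, H2-Eb1 0.615 and H2-Ab1 0.908. H2-Aa stayed over 1.5-fold at 2.14, and the list median was -0.10. That filter removes cells by class II transcripts themselves, so it lowers these genes by construction. The milder filter, which drops the 158 cells with 2 or more UMIs of the macrophage markers other than Lyz2 and reads no class II gene, gave 1.47 for Cd74 and 3.42 for H2-Eb1. Ms4a7, a macrophage marker, went from a ratio of 9.69 to 1.64 under that milder filter, which removes cells by this gene too.

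Of the 27 named genes over 1.5-fold higher, 25 could be computed under the stricter filter and 20 stayed over 1.5-fold. Among the 20, Apoc1, Abca1, Abcg1, Fabp5, Lgals3 and H2-Aa had reached the minimum level only through the high group. Those genes had to differ, so neither their ratios under this filter nor their place among the 20 supports anything. Of the 15 named lower genes, all could be computed and 9 stayed past 1.5-fold; Adgrg1 (0.687), Col27a1 (0.692), Hmgb2 (0.761), Tmem251 (0.78), Cxcl10 and Hes1 (both 0.980) did not. Lyz2, the lysozyme gene (chr10:117277331-117282321, minus strand), stood at 1167, 1232, 1498 and 2912 CPM (2.50, 2.41 to 2.59), with 11816 CPM outside the gate. Its ratio was 2.15 under the milder and 2.11 under the stricter filter. Under the stricter filter Cst7 had a ratio of 3.01, Fabp5 3.70, Lgals3 3.07, Abca1 2.87, Apoc1 30.2, Ctsd 1.59 and Fcrls 1.98. Wfdc17, a secreted whey acidic protein family gene, stood at 47.0, 47.2, 65.3 and 157 CPM (3.34, 2.80 to 4.00) and had 3.18 there. The leptin receptor gene Lepr, at 33.8 and 71.1 CPM, had 90.7% of its UMIs of the high group in 20 cells and a ratio of 1.03 under the stricter filter.

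**Figure D5:**
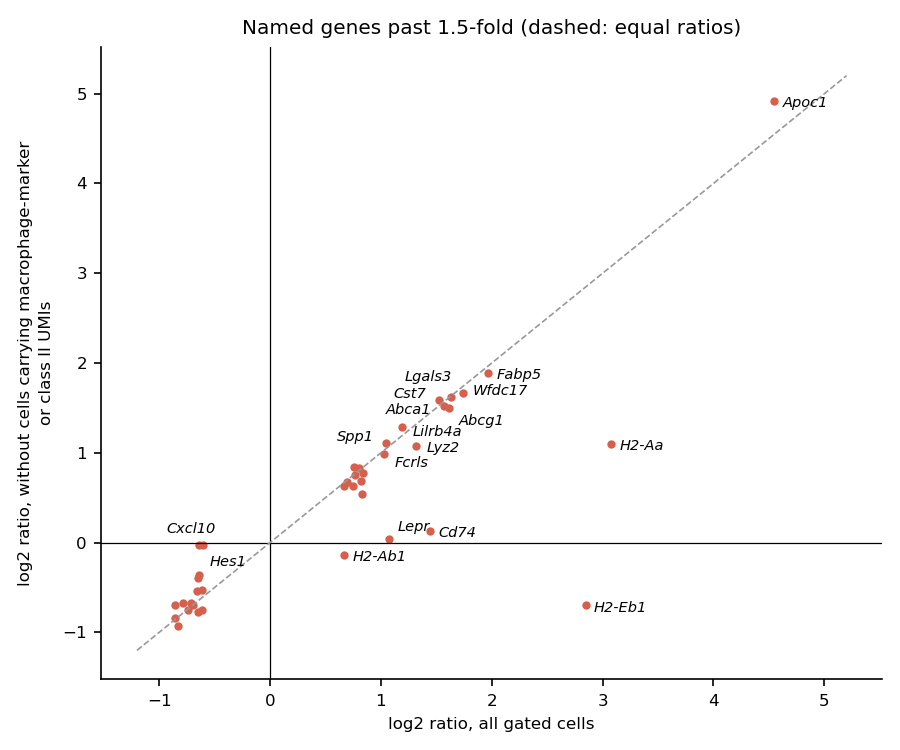
Log2 ratio of named genes past 1.5-fold in all gated cells (x axis) against that without the 1223 cells carrying macrophage-marker or class II UMIs (y axis), with equal ratios on the dashed line. Most genes lie near the line, and H2-Eb1, H2-Aa, Cd74, H2-Ab1, Lepr, Cxcl10 and Hes1 lie off it.

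The other genes with the largest ratios at 50 CPM or more were of mixed function. On the higher side, Lilrb4a, an inhibitory receptor gene, stood at 33.5, 36.3, 51.3 and 76.5 CPM (2.28, 1.83 to 2.86), and overlaps its close relative Lilr4b in the annotation, so its value is uncertain. Rap2b, a small GTPase gene, stood at 42.4 and 76.0 CPM in the low and high groups (1.79, 1.46 to 2.2), Ms4a6c at 55.9 and 99.5 CPM, with near relatives in its family (1.78, 1.49 to 2.13), the galectin gene Lgals1 at 104 and 183 CPM (1.77, 1.55 to 2.02), and the aldehyde dehydrogenase gene Aldh2 at 74.5 and 126 CPM (1.68, 1.44 to 1.97). On the lower side, Rrad, a small GTPase gene, stood at 76.0, 96.4, 79.0 and 41.9 CPM (0.551, 0.447 to 0.677). Ifrd1 stood at 240, 307, 231 and 139 CPM (0.579, 0.517 to 0.649). The other lower genes of this kind, Hmgb2, Tmem251, Col27a1, Tnfsf13b and Hes1, had ratios of 0.639 to 0.658, and 62.6% of the UMIs of Hes1 in the high group came from 20 cells. Rrad, Cxcl10, Ctsb and Aldh2 overlap other annotated genes on the opposite strand, and Ctsd and Spp1 on the same strand, and the sources used here do not say whether counting read the strand.

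The same rule applied to the control library, with 724 cells in each group after 607 cells under 3000 UMIs were left out, describes the relation without light damage. Apoe stood at 313, 641, 929 and 6926 CPM there, and 72 of 2896 cells (2.49%) had at least 100 UMIs per 10000, against 1141 of 4655 (24.5%) after light damage. The control high group therefore covers a lower Apoe range, and the libraries differ in depth, so values are set side by side with no test. Of 4930 genes, 92 were over 1.5-fold higher (1.87%) and 31 over 1.5-fold lower (0.629%). Of the 68 genes higher after light damage, 41 reached the minimum level in the control library, 11 of these were over 1.5-fold higher there too and 0 lower. Of the 58 lower genes, 54 reached it, 0 were over 1.5-fold lower there and 3 were over 1.5-fold higher. Ccl5, among the 3, reached the minimum there only through the control high group, so its direction was fixed in advance. How many of the 11 did so was not counted. Ctsd had a control ratio of 1.04 (1.02 to 1.06), Ctsb 1.05 (1.01 to 1.09), Cd63 1.13 (1.05 to 1.21) and Lyz2 1.50 (1.41 to 1.59). Cst3 had a control ratio of 0.892 (0.886 to 0.898). Cst7 was under the minimum level in the control library, at 6.91 and 18.0 CPM in the low and high groups, a ratio of 2.60 (1.40 to 5.08). Of the heat shock genes, 1 of 11 had a ratio below 1 in the control library.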

How the data were processed

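Single-cell 3′ RNA sequencing was done on sorted retinal YFP-positive cells, 1 library per group. Raw UMI counts per gene and barcode were deposited as 1 matrix for each library. Cell Ranger 2.0.0 and mm10 were used, per the submitters' processing notes, and the sources used here do not state strand use or doublet removal. Members and gene lists were chosen with earlier results of these data known.

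Gated cells were ranked by unthinned Apoe UMIs per 10000 and divided into 4 groups. Each cell was thinned without replacement to 3000 UMIs (seed 1), counts were summed per group and scaled to CPM, and ratios have exact conditional 95% Poisson intervals. Of symbols with several identifiers (56), the one with most UMIs was used. A gene was tested at a mean of at least 20 CPM over the low and high groups and called past 1.5-fold, and Apoe, the 5 gate genes and mitochondrial genes were left out. No test was made between cells of 1 library. The procedure was tested on simulated data. Doublets were treated by an alternative without the 372 deepest barcodes. Alternatives varied depth, seed, ranking, group size, scaling, level minimum, gate, cell filters and pseudocount; 2 filters, on macrophage and class II UMIs and on barcodes in both libraries, were added after seeing the data.

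Named genes were the 15 highest and 15 lowest ratios at 50 CPM or more, up to 6 called and 3 other members of each list, the Apoe pathway list, and the 10 highest and 5 lowest correlations with Apoe. Markers, some genes under the minimum level whose intervals left out 1, and some list members were named in addition after their values were seen. Clec7a was not found under that name. Promoters of 15 of 22 genes looked for were in the RefSeq table; Apoc1, Abcg1, Ctsb, Hmox1, Hsp90aa1, Hspa8 and Hsp90ab1 were not. Positions are 1-based, and 27645 of 27998 identifiers were found in GENCODE M21. Python 3.11.15, numpy 2.4.6, scipy 1.17.1, pandas 2.3.3 and matplotlib 3.10.9 were used.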

Additional observations from a re-analysis of the deposited data

Results flagged for a closer look

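Rrad, a small GTPase gene, was lower in Apoe-high than in Apoe-low cells after light damage, with a ratio of 0.551 (0.447 to 0.677), and higher in the control library under the same rule, with a ratio of 1.60 (1.29 to 2). Its levels were 76.0 and 41.9 CPM in the low and high groups after light damage and 64.0 and 103 CPM in the control library. In the light-damaged high group 45.2% of its UMIs came from 20 cells.

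Ccl5, a chemokine gene, had a ratio of 0.619 (0.558 to 0.686) after light damage and 6.73 (3.89 to 12.5) in the control library. Its levels were 276 and 171 CPM after light damage and 6.91 and 46.5 CPM in the control library, and 80.0% of its UMIs in the light-damaged high group came from 20 cells. In the control library Ccl5 reached the minimum of 20 CPM only through the high group. It thus had to be higher there, so its control direction supports nothing. For both genes the opposite direction in the 2 libraries was not tested, since each library is 1 pool, and the Apoe range of the control groups is lower.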

How the results depend on the processing

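Over 19 alternatives, 17 planned and 2 added after seeing the data, the counts of genes over 1.5-fold higher (68) and lower (58) moved with the level minimum and with what was compared. Top against bottom 10% of cells gave 180 and 216, top against bottom 50% gave 25 and 4, a minimum of 50 CPM gave 27 and 15, and a minimum of 5 CPM gave 342 and 307. A stricter gate of 40 per 10000 gave 117 higher genes, of which 30 were among the 68. Without thinning 30 genes were lower, and with a pseudocount of 10 CPM 17. Under the stricter gate the log2 ratio of Cxcl10 turned to 0.060 and that of H2-Ab1 to -0.050. Without cells carrying macrophage or class II UMIs H2-Ab1 turned to -0.14 and H2-Eb1 to -0.70. The causes were not tested, apart from group size and level minimum, which change the genes or cells entered. Of 42 named genes past 1.5-fold, 12 kept a ratio past 1.5-fold in every alternative that gave a value. Among the 12, Apoc1, Abca1, Abcg1, Fabp5, Lgals3, H2-Aa and the perivascular macrophage marker Folr2 reached the minimum level only through the high group. Those genes had to differ, so their place among the 12 supports nothing.

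No paired analysis was possible because each group is 1 library, and for the same reason leaving out a replicate was not run. Depth limits genes near 20 CPM, since the low and high groups each held 3489000 thinned UMIs.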
